A study of Rattus norvegicus with 6 samples.

Results

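The genes described here encode the constitutive proteasome, the ubiquitin-conjugating enzymes and the ubiquitin-specific proteases. They were taken as all probe sets whose platform annotation names exactly 1 gene with a symbol that begins with Psma, Psmb, Psmc, Psmd, Ube2 or Usp, without Psmb8, Psmb9, Psmb10, Ube2c and Usp18. This gave 59 probe sets of 36 genes among the 8740 probe sets on the array. Of these, 24 probe sets of 11 genes belong to the core particle (Psma and Psmb), 17 of 11 genes to the regulatory particle (Psmc and Psmd), 14 of 11 genes to the conjugating enzymes (Ube2) and 4 of 3 genes to the ubiquitin-specific proteases (Usp). A further 5 probe sets are annotated to several genes, among them those of Psmb6 and Psma3, and were not used. The samples were primary cultures of ventricular cardiac fibroblasts from Sprague-Dawley rats aged 1 to 2 days. In 3 of the 6 cultures water served as control, and the other 3 were given pertussis toxin (PTX, dose not stated in the labels), which ADP-ribosylates the G proteins Gi and Go and uncouples them from their receptors, and all were lysed after 24 h. Each culture was read on 1 array, and expression with PTX was compared with that under water. Whether the 3 cultures of a group came from separate cell isolations is not stated in the labels. The p-values thus reflect the spread among these 6 samples alone, possibly technical, and precision is limited by their small number.

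Most proteins that a cell removes on purpose are first marked with ubiquitin. An activating enzyme passes ubiquitin to a conjugating enzyme (E2), which transfers it to the substrate together with a ligase (E3), and deubiquitinating enzymes can take it off again. The marked protein is bound, unfolded and threaded by the regulatory particle into the barrel of the core particle, where subunits of the inner rings cut it into peptides. In heart muscle the same pathway takes part in protein quality control and in the turnover of contractile proteins.

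None of the 53 member probe sets that could be tested passed an adjusted p of 0.05 between PTX and control, and most of the measured differences were small. The other 6 were left out by a filter on low signals. The test was limma on log2(signal + 16), with Benjamini-Hochberg adjustment over all 5244 tested probe sets, of which 4 (0.0763%) passed. The 53 represent 33 of the 36 genes. An unadjusted p under 0.05 was found for 2 members that were higher and 4 that were lower with PTX, against 7.97% and 4.61% of all tested probe sets in these directions. Over all 53 members 21 log2 changes were positive and 32 negative, with a median of -0.06, where all tested probe sets had a median of -0.02, with 47.1% positive and 52.9% negative. The 95% confidence interval of the change lay within 2-fold either way for 48 of the 53 members, against 76.4% of all tested probe sets, and within 1.5-fold for 23, against 33.1%. The 5 with wider intervals were single probe sets of Psma2, Psmd4, Ube2d2, Ube2h and Usp37. These intervals are those of single probe sets and carry no adjustment for their number.

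Control replicate 1 differed most from the rest and decided many member values. It correlated with the other 5 arrays at 0.952 to 0.960 (log2 signals of all probe sets), while those 5 correlated with each other at 0.978 to 0.985. It gave the lowest or the highest signal of the 6 arrays for 42 of the 53 members, where the share over all tested probe sets was 65.03%. Results are therefore given with and without it. Without it 0 of the 53 members passed, against 2.21% of all tested probe sets. An unadjusted p under 0.05 was then found for 1 member that was higher and 6 that were lower, against 9.52% and 5.70% of all tested. The smallest adjusted p of a member was then 0.0856, for Psmb4.

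**Figure D1:**
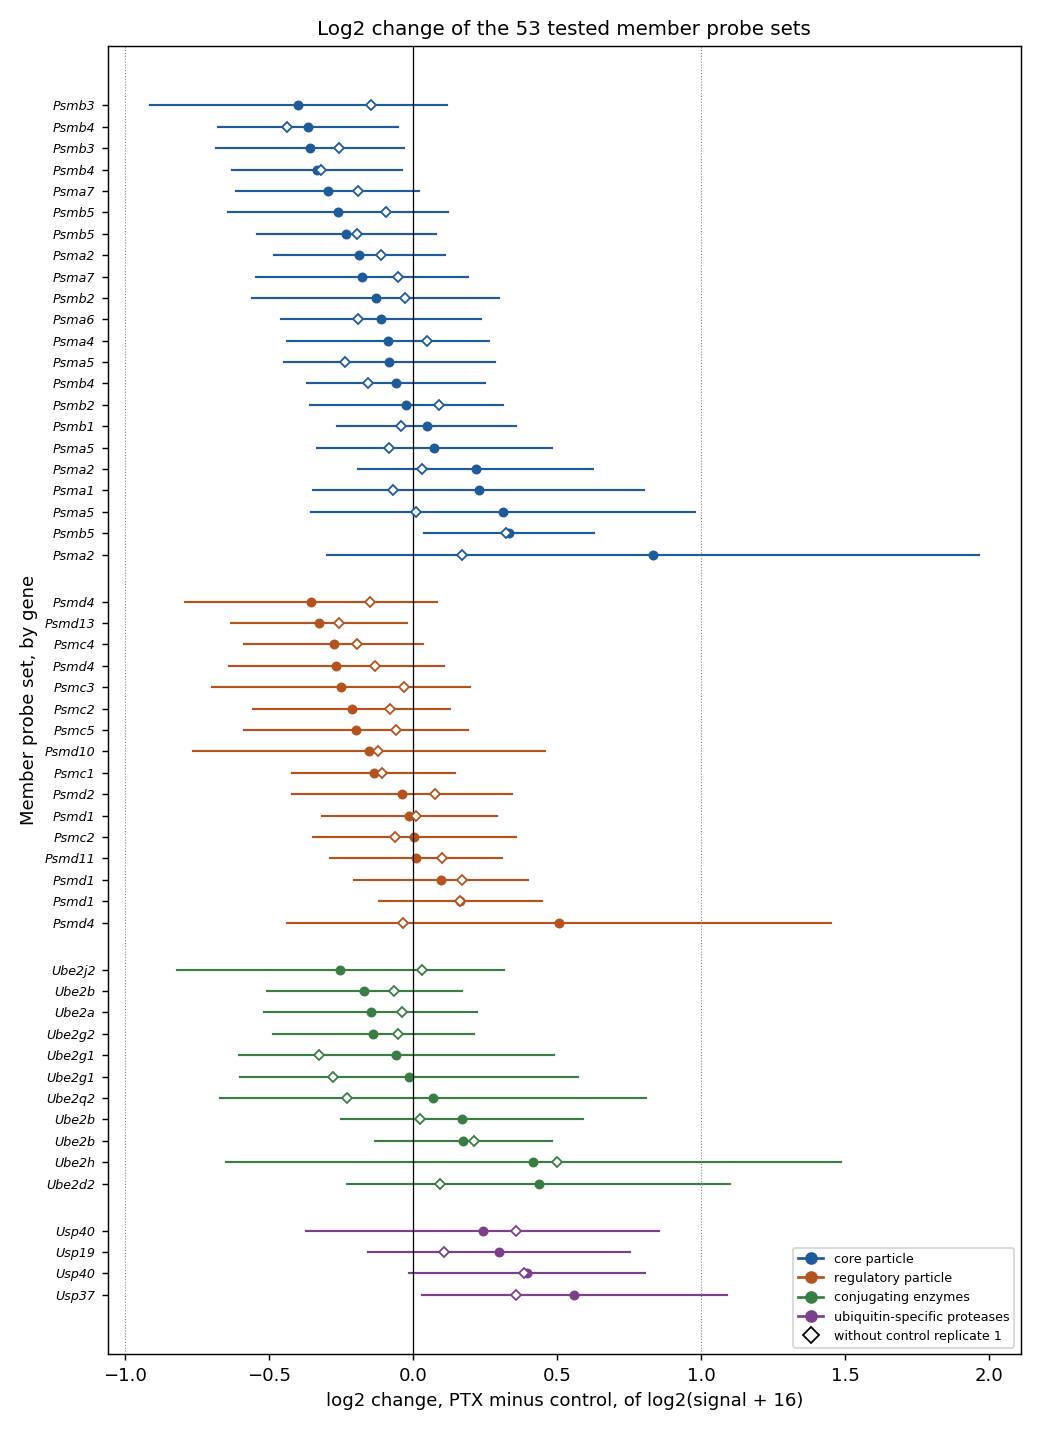
Log2 change with PTX (x axis, PTX minus control of log2(signal + 16)) of each of the 53 tested member probe sets (y axis, labelled by gene), by class. Filled circles are values over all 6 arrays with their 95% confidence intervals, open diamonds are values without control replicate 1, and dotted lines mark 2-fold. Most circles lie between -0.40 and 0.40, and the widest interval is that of a Psma2 probe set at 0.83.

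The core particle is a barrel of stacked rings, with Psma genes encoding the outer, gate-forming subunits and Psmb genes the inner ones. All 11 of its genes on the array were tested, on 22 probe sets. Of these 7 had positive and 15 negative log2 changes, with a median of -0.10 (-0.09 without control replicate 1 and -0.19 without control replicate 3), and 0 passed. The groups did not overlap for 5 core probe sets that were lower with PTX and for 1 that was higher, against 10.6% and 12.0% of all tested probe sets. Without control replicate 1 these counts were 7 and 1, against 15.8% and 16.9%.

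Psmb4, which encodes a non-catalytic subunit of the inner rings, had the smallest p of all members. Its probe set L17127_g_at had signals of 3357.4, 3755.9 and 4041.5 in control replicates 1, 2 and 3 and of 2565.6, 3173 and 2913.9 in PTX replicates 1, 2 and 3. All 3 PTX arrays lay below all 3 controls, and the log2 change was -0.37 ± 0.13 (SE), with a limma adjusted p of 0.360. The companion probe set L17127_at, named after the same sequence record, had 3175.9, 3110.7 and 3057.8 in the controls and 2214.9, 2791.7 and 2425.1 with PTX, again without overlap. Its log2 change was -0.33 ± 0.13 (adjusted p = 0.366). Both kept their size without control replicate 1, at -0.44 and -0.32. The remaining Psmb4 probe set, rc_AI172162_at, had 1732.9, 2063.1 and 2193.7 in the controls and 2015, 1836.8 and 1869.9 with PTX. Its groups overlapped, with a log2 change of -0.06 (-0.16 without control replicate 1).

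Psmb3, another non-catalytic subunit of the inner rings, was lower on both of its probe sets without passing. D21800_g_at had 2121.3, 1806.8 and 1641.4 in the controls and 1555.1, 1387.3 and 1372.4 with PTX, with no overlap and a log2 change of -0.36 ± 0.14 (limma adjusted p = 0.370). D21800_at had 1317.7, 830.9 and 715 in the controls and 699.4, 739 and 649.5 with PTX, where the groups overlapped and control replicate 1 was the highest. Its log2 change of -0.40 became -0.15 without that array, while the first probe set had -0.26.

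Psmb5, which encodes the catalytic subunit with chymotrypsin-like activity and the main target of proteasome inhibitor drugs, gave opposite signs on its probe sets. The probe set rc_AA891226_s_at had 1468.5, 1373.5 and 1652.6 in the controls and 2006.7, 1787.4 and 1868.6 with PTX, all higher than the controls, with a log2 change of 0.33 ± 0.13 (limma adjusted p = 0.366). D45247_g_at, the member probe set with the highest mean signal in both groups, had 4824.6, 4703.4 and 4231.4 in the controls and 3358.7, 4206.9 and 4174.5 with PTX, all lower than the controls, with a change of -0.23. D45247_at had -0.26 with overlapping groups. Without control replicate 1 the 3 values were 0.32, -0.20 and -0.10, so the array did not set the contrast between them. No direction can be given for Psmb5 from these probe sets.

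Among the outer ring genes, Psma7 had the lowest change, on D30804_g_at, with 4969.6, 4233.3 and 3740.6 in the controls and 3475, 3689.1 and 3297.4 with PTX. The PTX arrays lay below the controls, and the log2 change was -0.30 ± 0.14 (limma adjusted p = 0.420), or -0.19 without control replicate 1. Its other probe set had -0.18, or -0.05 without that array. Psma2 had the largest positive change of any member on rc_AI170403_at, with 358.8, 1520.5 and 1425.7 in the controls and 1744.7, 1515.4 and 1721.8 with PTX. Only control replicate 1 was low there, and the change of 0.83 ± 0.49 became 0.17 without it. The other Psma2 probe sets had 0.22 and -0.19. Psma1 was likewise low on control replicate 1 alone, with 626 against 1216.8 and 1135.6 on the other controls, and its change of 0.23 became -0.07 without it. Psma4, Psma5, Psma6, Psmb1 and Psmb2 had log2 changes between -0.13 and 0.31 on 8 probe sets, and none of their groups was free of overlap. Without control replicate 1, Psma5 on D10756_g_at had -0.24 and an unadjusted p under 0.05, with 1844.9 and 1730.8 in the controls and 1535.5, 1479 and 1523.7 with PTX.

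The regulatory particle caps the core, with base ATPases encoded by Psmc genes and base scaffold, lid and receptor subunits encoded by Psmd genes. Its 11 genes were tested on 16 probe sets, of which 5 had positive and 11 negative log2 changes and 0 passed. The median was -0.15, and it was -0.06 without control replicate 1 and -0.23 without control replicate 3. Control replicate 1 was the highest of the 6 arrays for 10 of the 16. The groups did not overlap for 2 probe sets, both lower with PTX, against 10.6% of all tested probe sets that were lower and 12.0% that were higher. Leaving out control replicate 1 gave 2 lower and 1 higher, against 15.8% and 16.9%. The counts of lower probe sets are near the shares over all tested probe sets, and the counts of higher ones, 0 and 1 of 16, are under them. Psmd13, a lid subunit, had 1364.5, 1236.9 and 1122.3 in the controls and 1050, 942.4 and 956.9 with PTX. All PTX arrays lay below the controls, with a log2 change of -0.33 ± 0.13 (limma adjusted p = 0.375), or -0.26 without control replicate 1.

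Among the unfolding ATPases, Psmc4 had 1039.4, 899.9 and 849 in the controls and 778.5, 720.2 and 787.6 with PTX, without overlap, and a log2 change of -0.28 ± 0.13 (limma adjusted p = 0.432). Psmc1, Psmc2, Psmc3 and Psmc5 had log2 changes between -0.25 and 0.00 on 5 probe sets with overlapping groups. Without control replicate 1 Psmc4 had -0.20, and the 5 had values between -0.11 and -0.03. Psmc3 shows the weight of that array, with 2063.2 on it, 1315 and 1299.6 on the other controls, and 1299.5, 1335.1 and 1200.6 with PTX. In that gene the other 2 controls and the PTX arrays interleave.

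Psmd4, a ubiquitin receptor of the particle, had -0.27 and -0.35 on a pair of probe sets and 0.51 on rc_AA799887_s_at. The last had 375.3, 1266.9 and 1115.8 in the controls and 1286.8, 1109.5 and 1093.2 with PTX, so that control replicate 1 alone was low. Without that array the 3 changes were -0.13, -0.15 and -0.04. Psmd1, a large scaffold subunit of the base, had changes of -0.01, 0.10 and 0.16. Its brightest probe set had 2627.8, 2907.9 and 2388.6 in the controls and 2961.6, 2853.4 and 3034.7 with PTX, with overlap through control replicate 2. Psmd2, the other large scaffold subunit, had -0.04, and Psmd11, a lid subunit, 0.01. Psmd10, which encodes gankyrin, an assembly chaperone that is absent from the finished particle, had -0.15 at low signals of 55 to 110.8.

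Promoter windows are shown for the 5 genes with a member probe set at an unadjusted p under 0.05, because they are the members nearest to a difference. Of the 36 member genes, 35 have a window in RefSeq of the rat assembly GRCr8. Each runs from 250 bases before to 50 bases after the annotated start and is written 5′ to 3′. Capitals mark matches on either strand to TGACNNNGC, the core of the antioxidant response element bound by the proteasome regulator Nfe2l1, to CCAAT, to GGGCGG (the GC box) and to TATAAA. Marked matches do not overlap each other.
Psmb4 promoter (chr2:185134512-185134811, - strand): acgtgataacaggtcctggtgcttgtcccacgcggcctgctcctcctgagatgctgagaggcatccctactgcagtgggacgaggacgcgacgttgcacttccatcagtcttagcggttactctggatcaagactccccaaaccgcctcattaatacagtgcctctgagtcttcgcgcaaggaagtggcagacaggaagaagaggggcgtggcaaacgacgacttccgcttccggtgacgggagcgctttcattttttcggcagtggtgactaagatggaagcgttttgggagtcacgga
Psmb3 promoter (chr10:83193537-83193836, + strand): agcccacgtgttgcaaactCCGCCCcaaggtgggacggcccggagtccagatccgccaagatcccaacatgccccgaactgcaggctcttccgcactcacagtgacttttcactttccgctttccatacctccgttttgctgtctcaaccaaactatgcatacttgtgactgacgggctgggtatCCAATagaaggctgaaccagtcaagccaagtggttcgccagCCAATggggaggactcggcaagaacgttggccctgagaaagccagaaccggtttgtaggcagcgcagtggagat
Psmb5 promoter (chr15:32047330-32047629, - strand): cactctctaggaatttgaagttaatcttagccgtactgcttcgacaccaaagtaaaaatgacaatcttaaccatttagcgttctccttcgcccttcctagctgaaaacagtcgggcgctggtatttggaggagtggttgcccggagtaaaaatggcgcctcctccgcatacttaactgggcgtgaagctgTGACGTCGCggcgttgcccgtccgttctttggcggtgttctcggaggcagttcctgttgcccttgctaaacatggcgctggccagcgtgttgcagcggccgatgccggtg
Psmd13 promoter (chr1:205393998-205394297, + strand): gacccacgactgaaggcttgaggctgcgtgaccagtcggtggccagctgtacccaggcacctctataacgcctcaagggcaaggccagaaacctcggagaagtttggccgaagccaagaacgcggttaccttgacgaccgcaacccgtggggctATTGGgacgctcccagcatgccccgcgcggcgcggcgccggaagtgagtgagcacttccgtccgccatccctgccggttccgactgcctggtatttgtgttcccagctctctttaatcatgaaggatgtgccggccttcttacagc
Usp37 promoter (chr9:83533123-83533422, - strand): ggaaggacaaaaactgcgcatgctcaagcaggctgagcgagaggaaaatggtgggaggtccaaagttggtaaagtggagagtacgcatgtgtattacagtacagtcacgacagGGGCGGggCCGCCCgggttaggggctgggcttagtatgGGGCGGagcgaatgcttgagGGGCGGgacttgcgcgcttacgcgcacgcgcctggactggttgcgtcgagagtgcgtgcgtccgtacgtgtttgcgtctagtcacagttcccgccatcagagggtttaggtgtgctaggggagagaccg
Psmb4 has 0 matches, Psmb3 has 3, Psmb5 and Psmd13 have 1 each and Usp37 has 4. Of all 35 windows, 7 hold TGACNNNGC, against 12.1% of all 33469 RefSeq windows and 12.5% of those of protein-coding genes. CCAAT is in 16 of the 35, against 37.5% and 38.0%, GGGCGG in 25, against 33.1% and 41.8%, and TATAAA in 4, against 14.2% and 13.0%. By class, TGACNNNGC is in 2 of 10 core genes (Psmb2 and Psmb5), 1 of 11 regulatory genes (Psmd1), 4 of 11 conjugating genes and 0 of 3 protease genes. A match describes letters only, and no binding was measured.

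**Figure D2:**
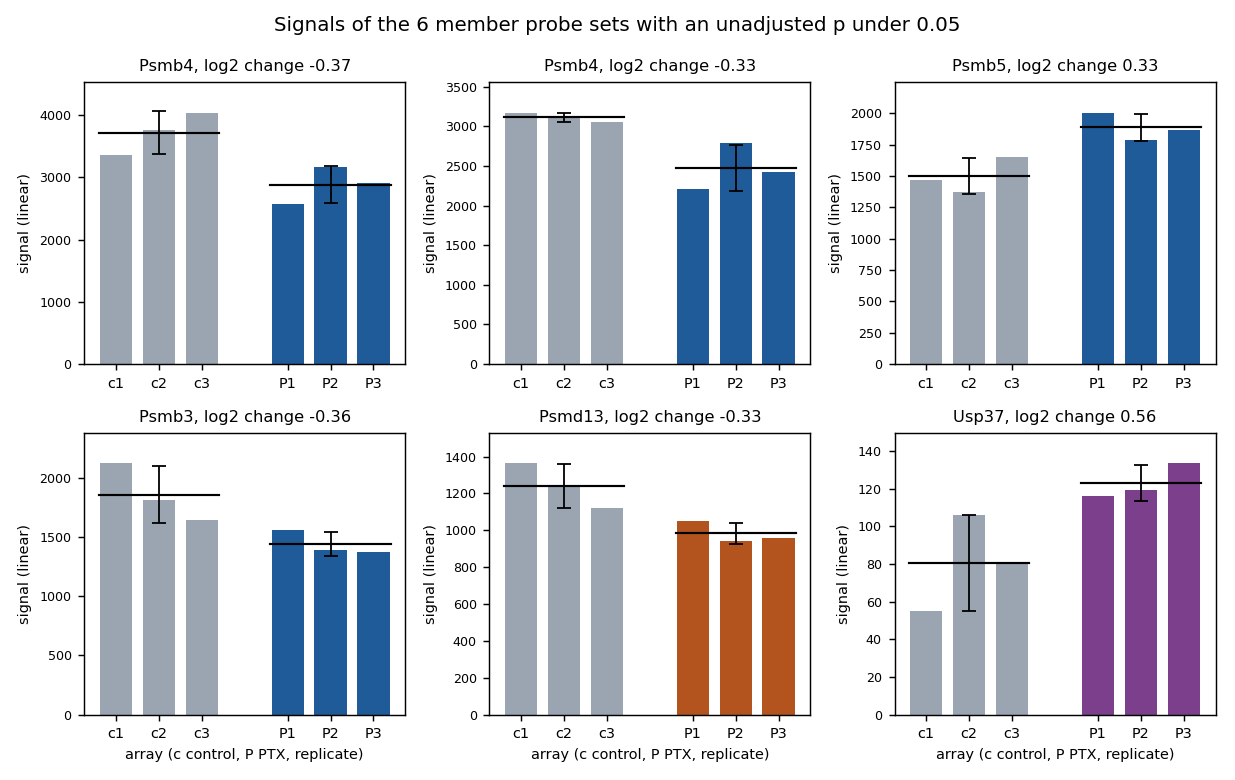
Linear signal (y axis, from 0) on each array (x axis, c control and P PTX with replicate number) of the 6 member probe sets with an unadjusted p under 0.05, in order of p. Bars are single arrays, black lines are group means and error bars are SD (n = 3). In every panel the PTX bars lie on one side of all control bars, lower in Psmb4, Psmb3 and Psmd13 and higher in the Psmb5 and Usp37 probe sets.

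The conjugating enzymes showed no common direction. Of their 11 genes on the array 8 were tested, on 11 probe sets, with 5 positive and 6 negative log2 changes and a median of -0.02 (-0.04 without control replicate 1), and 0 passed. One of the 11 probe sets was free of overlap and higher with PTX, a share near the 12.0% of all tested probe sets. It was that of Ube2b, an enzyme of DNA repair and histone ubiquitylation, on rc_AA799612_at, with 836, 698.5 and 855.3 in the controls and 897.8, 896.3 and 894.7 with PTX. The log2 change was 0.17 ± 0.13 (limma adjusted p = 0.571). The other Ube2b probe sets had 0.17 and -0.17, and its close relative Ube2a had -0.15, all with overlapping groups.

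Ube2d2, an enzyme that works with many ligases, had 127.2, 281.2 and 270.8 in the controls and 323.5, 316.2 and 251.4 with PTX. Control replicate 1 was low and the rest overlapped, and the log2 change of 0.43 became 0.09 without that array. The enzymes of degradation at the endoplasmic reticulum had -0.14 for Ube2g2 and -0.25 for Ube2j2. Ube2j2 had 1923.7 on control replicate 1 against 936.3 and 1193.9 on the other controls, and its change was 0.03 without that array. Ube2g1 moved the other way when the array was left out. On AF099093_g_at it had 527.9, 964.3 and 898.4 in the controls and 659.2, 848 and 721.7 with PTX, a change of -0.06 that became -0.33 without control replicate 1, with no overlap and an adjusted p of 0.269. Ube2h (0.42) and Ube2q2 (0.07) had signals of 10.1 to 84.5 and wide intervals.

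The 4 probe sets of the ubiquitin-specific proteases were all positive, against 47.1% of all tested probe sets, with a median log2 change of 0.35 (0.36 without control replicate 1) and 0 passing. Usp37, which removes ubiquitin from cell cycle proteins, had 55.2, 105.8 and 80.5 in the controls and 115.9, 119.5 and 133.5 with PTX. All PTX arrays lay above the controls, with a log2 change of 0.56 ± 0.23 (limma adjusted p = 0.387), or 0.36 without control replicate 1. Usp40 had 128.5, 153.6 and 112.7 in the controls and 178.4, 155.3 and 199.7 with PTX on its brighter probe set, again without overlap, and a change of 0.40 ± 0.18 (adjusted p = 0.410). Its dimmer probe set had 0.24 with overlap. Usp19, a protease anchored in the endoplasmic reticulum membrane, had 141.6, 235.1 and 205.4 in the controls and 237.8, 227 and 248.3 with PTX, with overlap. Its change of 0.30 became 0.10 without control replicate 1.

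All 4 of these probe sets have names that begin with rc_AA893 or rc_AA894, and such names move with the change across the array. The 420 tested probe sets named rc_AA892, rc_AA893 or rc_AA894 had a median log2 change of 0.29, with 79.0% positive, and 128 of them were free of overlap and higher with PTX. Without control replicate 1 their median was 0.16. The 4 protease values of 0.24 to 0.56 thus lie within the spread of their naming class. The proteasome genes are read mostly by probe sets not named rc_, which had a median of -0.10 over 2960 tested, with 65.2% negative. Of the core probe sets 17 have such names, with 14 negative and a median of -0.18, and 5 were free of overlap and lower with PTX, against 13.6% of all probe sets not named rc_. Of the regulatory ones 12 have such names, with 10 negative and a median of -0.18, and 1 was free of overlap. Without control replicate 1 the medians were -0.11 for the core, -0.07 for the regulatory particle and -0.05 for all probe sets not named rc_. The part of the naming class in the members' changes was not tested.

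**Figure D3:**
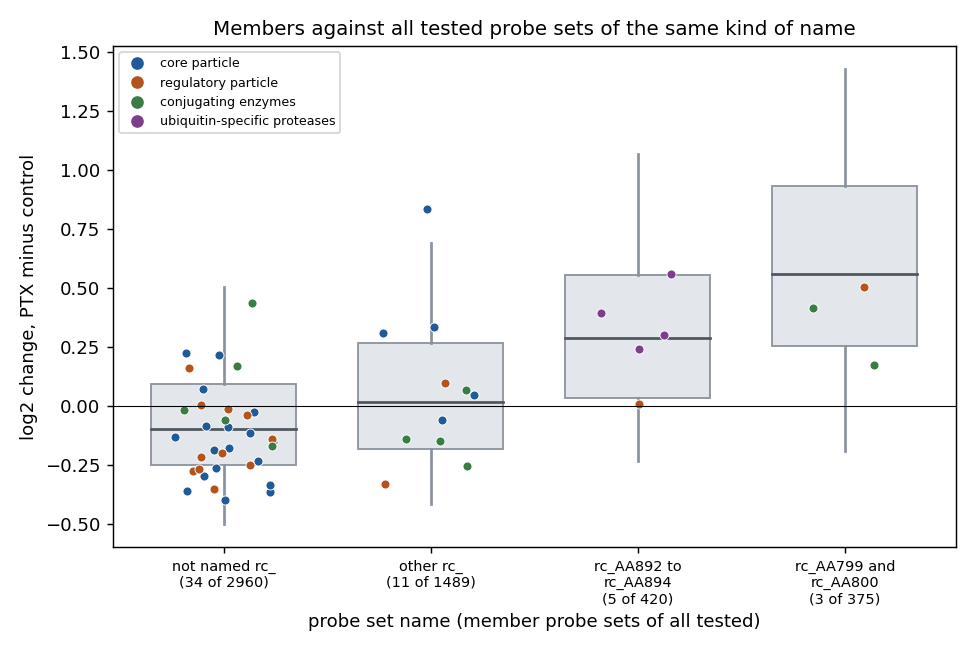
Log2 change with PTX (y axis) of the tested probe sets by the start of their name (x axis, with members of all tested in brackets). Boxes span the lower to the upper quartile of all tested probe sets with the median as a line, whiskers reach from the lower to the upper 5% point, and coloured points are members, spread sideways for legibility. The 4 protease points run from 0.24 to 0.56 in a class with a median of 0.29 and an upper quartile of 0.56, and most core and regulatory points lie around or under the class median of -0.10.

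Within single genes the change also differed between probe sets. Of the 13 genes with at least 2 tested probe sets, 7 had changes of both signs. Of the 7 genes read both by rc_ probe sets and by others, the mean change of the rc_ probe sets was the higher one in 7, with all arrays and without control replicate 1. These 7 were Psma2, Psma5, Psmb4, Psmb5, Psmd1, Psmd4 and Ube2b. Their difference was largest for Psma2 and Psmd4, where control replicate 1 was low on the rc_ probe set, and smallest for Psmd1, with 0.10 against 0.07. The rc_ probe sets of Psmd4 and Ube2b have names that begin with rc_AA799. Those of the other genes belong to the other rc_ names, which had a median of 0.02 over 1489 tested probe sets. How often this held over all genes of the array read by both kinds was not counted. Among the tested members 11 pairs of probe sets share a sequence record, so they are not separate readings of a gene.

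The class medians by array show how the small shifts lie across the arrays. Each value is the median, over the class, of the log2 signal minus that probe set's mean over the 6 arrays. For the core it was 0.12, 0.14 and -0.01 in control replicates 1, 2 and 3 and -0.05, 0.00 and -0.05 in PTX replicates 1, 2 and 3. Control replicate 3 lay among the PTX arrays. For the regulatory particle it was 0.21, 0.04 and -0.06 in the controls and -0.07, -0.05 and -0.07 with PTX, so that control replicate 1 carried most of the difference. All probe sets not named rc_ had 0.16, 0.04 and -0.02 in the controls and -0.06, -0.05 and 0.01 with PTX. The proteases had -0.38, 0.05 and -0.25 in the controls and 0.21, 0.06 and 0.37 with PTX, where the lowest PTX value barely exceeded the highest control value.

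**Figure D4:**
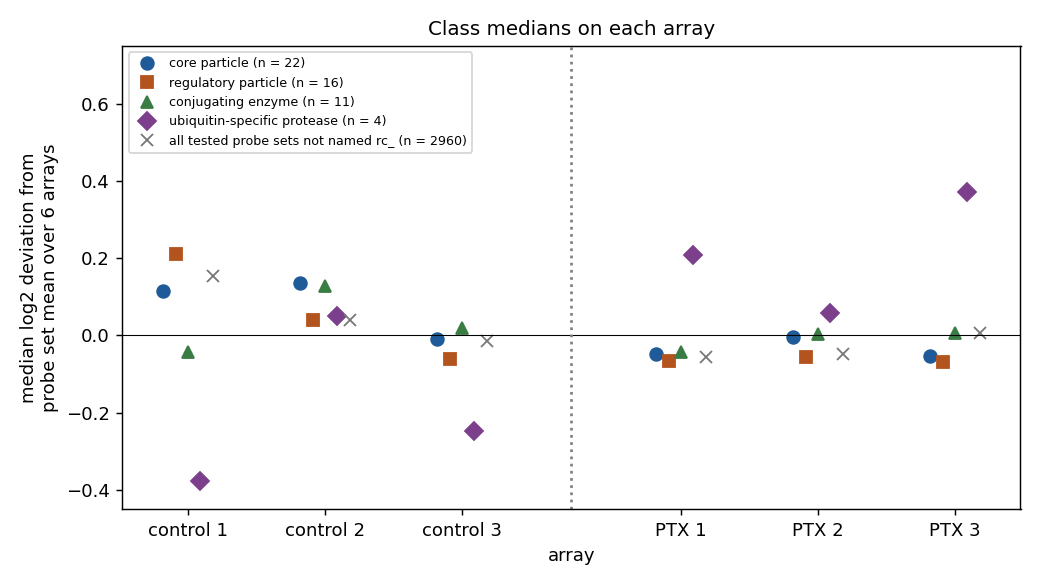
Median deviation of the log2 signal from each probe set's mean over the 6 arrays (y axis) on each array (x axis), for the 4 member classes and for all tested probe sets not named rc_. Points are medians over the number of probe sets in the legend. The regulatory particle stands at 0.21 on control replicate 1 and between -0.07 and 0.04 elsewhere, and the proteases range from -0.38 to 0.37.

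Of the members left out by the filter, Ube2m, which conjugates the ubiquitin-like protein NEDD8, had signals of 6.2 to 27.8, Ube2e3 16.4 to 35.9 and Ube2d2b 0.9 to 17.2. These genes have no other probe set among the members. The remaining 3 were further probe sets of Psma1, Psma6 and Psmd1. The member just inside the filter was Ube2h, with a mean of 5.97 on the log2(signal + 16) scale, and the one just outside was the Psma1 probe set, with 5.42.

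Other genes of the pathway, listed with earlier results of these data known, gave 0 calls as well, with and without control replicate 1. The immunoproteasome subunits, which replace catalytic core subunits under interferon, had log2 changes of 0.06 for Psmb8 and 0.20 for Psmb9. Psmb9 had 108.9, 108.6 and 101.2 in the controls and 126.4, 122.2 and 125.4 with PTX, without overlap (limma adjusted p = 0.562). Among activators and assembly factors, 2 of 5 tested probe sets were positive. Psme4, an alternative cap of the core, had 135.7, 307.5 and 366.4 in the controls and 570.8, 384.7 and 585.2 with PTX. Its groups did not overlap, and its change of 0.97 ± 0.35 (adjusted p = 0.350) was 0.57 without control replicate 1. Its probe set is also of the rc_AA892 to rc_AA894 kind. Pomp, which assembles the core, had -0.30 with overlap, and the activator genes Psme1 and Psme2 had -0.08 to 0.03.

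Among the E3 ligases 5 of 11 probe sets were positive, with a median of -0.08. The highest were Cul2 (0.49) and Ube3a (0.38), both with overlapping groups. The groups did not overlap for 2 that were lower with PTX, Nedd4 and Rnf4 (-0.27), and for 0 that were higher. The shares over all tested probe sets were 10.6% and 12.0%. Nedd4, a ligase of membrane proteins, had 3439.4, 3112.7 and 2720 in the controls and 2359.2, 2515.3 and 2543.5 with PTX. Its log2 change was -0.31 ± 0.13 (limma adjusted p = 0.388). Of the other deubiquitinases and shuttle factors 5 of 6 were positive, with a median of 0.15, and Vcp, the segregase that extracts marked proteins, had 0.13 and 0.18. Nedd8 had -0.24, and Nae1, part of its activating enzyme, -0.15 and 0.00. Nfe2l2, a transcription factor that induces proteasome genes under oxidative stress, had 0.10 and 0.51, both with overlap.

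Fibroblast markers were present, as labelled, and so were markers of cardiomyocytes, whose summed signal was the larger on every array. From which cells the members' signals came was not tested. All 10 listed fibroblast markers were tested. The sum of each list takes only the tested probe set of each gene with the highest mean log2 signal. For these 10 markers the sum was 83812 to 100000 in the controls and 87819 to 91926 with PTX. Of their 23 tested probe sets 5 that were higher and 4 that were lower had an unadjusted p under 0.05. The shares over all tested probe sets were 7.97% and 4.61%, and 0 of the 23 passed the limma adjusted threshold. When control replicate 1 was left out, 2 passed, against 2.21% of all tested probe sets. They had log2 changes of -0.95 for a Thy1 probe set (limma adjusted p = 0.00771) and 0.74 for Lum (adjusted p = 0.00646). For 12 of 13 listed cardiomyocyte markers the summed signal was 282551 to 362897 in the controls and 242009 to 272875 with PTX. These 2 ranges did not overlap. Of their 22 tested probe sets 19 were negative, with a median log2 change of -0.24 (-0.12 without control replicate 1) and 0 calls. An unadjusted limma p under 0.05 was found for 6 that were lower and 0 that were higher, against 4.61% and 7.97% of all tested probe sets. The groups did not overlap for 8 that were lower and 0 that were higher, against 10.6% and 12.0%. For 5 of 9 macrophage markers the sum was 3343 to 3486 in the controls and 4175 to 5339 with PTX, with 4 of their 7 probe sets positive and 3 negative. The higher ones include Lyz2, with 2138.6 to 2516.8 in the controls and 2908.4 to 4149.7 with PTX, and Fcgr2b, with 297.5 to 353.8 and 591.5 to 647.6, while C1qb (-0.39 and -0.16) and C1qc (-0.24) were negative with overlapping groups. Lyz2 gave the largest part of the sum on every array, and its probe set is of the rc_AA892 to rc_AA894 kind. Of the 7 probe sets 0 passed, and 1 (Fcgr2b) passed without control replicate 1. Among the macrophage markers Ptprc and Csf1r, and among the endothelial ones Pecam1 and Vwf, had signals under the filter on every probe set. The endothelial marker Kdr was tested, with 58.9 to 104.7 in the controls, 52.4 to 99.6 with PTX and a log2 change of -0.04. For the 4 listed smooth muscle markers the sum was 10295.5 to 15473.5 in the controls and 13454.9 to 14407 with PTX. Of their 7 tested probe sets 3 were positive and 4 negative, with a median of -0.11 and 0 calls. The part of these markers in the members' changes was not tested, and in such cultures fewer cells of a type and less RNA per cell cannot be told apart.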

How the data were processed

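Per the labels, biotinylated cRNA of each culture was hybridised to 1 Affymetrix array, and the authors deposited 1 linear intensity per probe set and array. The submitters' processing notes name GCOS. For its version, scaling target and detection calls the sources used here give nothing. The 2% trimmed means were 493 to 495 and the median signals 63.1 to 68.85, so no further scaling was applied. Sample titles gave each array its group and replicate number.

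Of 8740 probe sets, 7006 have 1 gene symbol in the platform annotation, 308 have several and 1426 have none. Symbols of all 59 members were found in RefSeq through the Entrez identifier. A pseudocount of 16 was added before taking log2, which shrinks the fold changes of dim probe sets. Probe sets were kept where their mean over the 6 arrays reached the 40th percentile. The probe sets kept were tested with limma 3.58.1 in R 4.3.3 (lmFit, then eBayes with a trend on mean intensity). Tests were two-sided and adjusted by Benjamini-Hochberg. The procedure was run on simulated data with independent noise and no deviating array, which does not cover an array like control replicate 1. The members, the lists and the alternatives were chosen with earlier results of these data known, so classes are described without a test. Alternatives were other pseudocounts, filters, normalizations, variance models, the replicate number as a block, each array left out and naming classes dropped. Promoter windows come from RefSeq.

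Named individually were the 4 smallest p per class, the brightest, members with an unadjusted p under 0.05 with or without control replicate 1, and genes with several probe sets; others named are examples.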

Additional observations from a re-analysis of the deposited data

How the results depend on the processing

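No detection calls were used, so dim signals may lie near background. In none of the 20 settings tried, 19 of them alternatives, did a limma adjusted p of a member pass 0.05. Members at an unadjusted p under 0.05 numbered 0 to 7 per setting, and the smallest adjusted p ranged from 0.0856 without control replicate 1 to 0.684 without PTX replicate 1. The count of all probe sets called was 4. It was 2 with a pseudocount of 1 or quantile normalization, 7 with a pseudocount of 64, 9 with robust variances, 81 with array quality weights, 8 after dropping names that start with rc_AA799 or rc_AA800 and 11 after dropping the rc_AA892 to rc_AA894 names too. It was 0 without an intensity trend. With the replicate number as a block it was 0 (552 at an unadjusted p under 0.05), and the members' smallest adjusted p was 0.450. Same-numbered arrays did not deviate together (correlations of deviations -0.093, -0.11 and -0.0080). With 3 arrays per group this cannot show whether same-numbered cultures were paired, which the labels do not state. Leaving out 1 array gave 0 to 116 calls, with 116 without control replicate 1, 29 without control replicate 3 and 0 without any one PTX array.

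With 1 array left out, the median log2 change of the core ranged from -0.19 to -0.0770, that of the regulatory particle from -0.23 to -0.0622 and that of the conjugating enzymes from -0.0628 to 0.0824. Quantile normalization gave -0.0825 for the conjugating enzymes. The protease median has no value without the 5 name prefixes.

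Of 990 member values under the alternatives, 943 kept their sign and 47 changed it, in 20 probe sets. With array quality weights the changed values were -0.0857 for Psma5, 0.0472 for Psmb2, 0.10 for Psmd2, -0.0093 for Psma1, 0.01 for Ube2j2, -0.23 for Ube2q2, -0.0890 for Psmc2 and 0.0038 for Psma4. Quantile normalization gave -0.0218 for Psmd11 and -0.0522 for Psmc2, and cyclic loess 0.0162 for Psmb2 and -0.0117 for Psmc2. With 1 array left out, values ranged from -0.36 to 0.0602 for Psmd10, from -0.28 to 0.21 and from -0.33 to 0.0984 for the Ube2g1 probe sets, and from -0.0831 to 0.0296 for Psmd1. They ranged from -0.19 to 0.0308 for Psma6, from -0.0836 to 0.19 and from -0.24 to 0.0164 for Psma5, from -0.24 to 0.0258 and from -0.13 to 0.0892 for Psmb2, from -0.16 to 0.0762 for Psmd2 and from -0.0711 to 0.40 for Psma1. They ranged from -0.11 to 0.86 for Ube2h, from -0.0351 to 0.82 for Psmd4, from -0.0425 to 0.14 for Psmb1, from -0.48 to 0.0312 for Ube2j2, from -0.0569 to 0.0978 for Psmd11 and from -0.16 to 0.0112 for Psmb4. For Ube2q2 they ranged from -0.23 to 0.32, for Psmc2 from -0.0802 to 0.11 and for Psma4 from -0.19 to 0.0480. Apart from control replicate 1, where the values show that array to stand apart, the cause was not tested.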
